A study of Homo sapiens with 7 samples.

Results

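Quantitative PCR reports a transcript as a ratio to a gene assumed to be steady, and *GUSB* was the gene to which the study normalized its *ABCG2* and *BCR::ABL1* assays in dasatinib resistant K562 cells. The levels of *GUSB* and of 7 other common reference genes, *ACTB*, *HPRT1*, *TBP*, *YWHAZ*, *PPIA*, *IPO8* and *POLR2A*, were followed in the RNA sequencing counts of all 7 lines. These 8 genes were found by symbol and NCBI gene ID among the 25702 gene IDs of the count table, and all 8 were among the 10452 tested genes, which reached 10 CPM (counts relative to the library total, brought to a fixed depth) in 2 or more libraries. The list was chosen by a measured value, the lower *GUSB* level in the early stage lines of these same data, so that the differences of these 8 genes between the early stage lines and the controls, and that of *GUSB* between the stages, are given as a description, without a test.

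K562, a long established line from chronic myeloid leukemia, has the BCR::ABL1 fusion, and its cells, labelled as erythroblasts, were grown in rising concentrations of the kinase inhibitor dasatinib to give the resistant (DasR) lines. The drug naive line and the DMSO vehicle line were the 2 controls, the 10, 15 and 25 nM DasR lines formed the early stage group, and late stage meant the 50 and 200 nM DasR lines. The study drew these groups after clustering the same libraries by expression, so that the tests between them are not independent of the grouping. Each line was sequenced once, with 21007761 counts in the drug naive line, 24037893 in the DMSO line, 27808639, 27844799 and 20059656 at 10, 15 and 25 nM, and 20827519 and 21588772 at 50 and 200 nM. The DasR lines are steps of 1 dose escalation of 1 cell line, not separate selections, so that every test measures the spread between these lines and not between repeat cultures.

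The identity of the cells was checked on marker genes. Erythroid genes were abundant in every line, with *GATA1*, the master regulator of the lineage, between 165 and 295 CPM, while the endothelial gene *CDH5* had 0 counts in all 7 libraries, the B cell gene *MS4A1* had 1 count in the 15 nM line and 0 in the others, and the T cell gene *CD3E* stayed between 0.139 and 1.40 CPM. The 12 erythroid markers together took 3611 and 3333 CPM in the controls, 11250, 12910 and 9702 CPM at 10, 15 and 25 nM, and 5998 and 3999 CPM at 50 and 200 nM. The most abundant of them was the fetal globin gene *HBG2*, or at 15 and 25 nM the embryonic globin gene *HBZ*, which went from 59.5 and 74.3 CPM in the controls to 1865, 2856 and 1917 CPM at 10, 15 and 25 nM. *GATA1* did not follow the sum, at 201.3 and 217.5 CPM in the controls, 165.3, 205.6 and 191.3 CPM at 10, 15 and 25 nM, and 234.8 and 294.7 CPM at 50 and 200 nM. The summed erythroid output was highest in the same lines in which *GUSB* was lowest, and its part in the levels below was not tested.

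A reference gene is useful when its RNA stays in a fixed proportion to the RNA of the sample. The genes in common use do unrelated work in the cell, so that no single pathway should move all of them: *GUSB* encodes beta-glucuronidase, a lysosomal enzyme that trims glycosaminoglycans, and *HPRT1* an enzyme of purine salvage. *ACTB* encodes cytoplasmic beta-actin, *YWHAZ* a 14-3-3 adaptor that binds phosphorylated proteins, and *PPIA* the peptidyl-prolyl isomerase cyclophilin A. *TBP* encodes the TATA-binding protein, *POLR2A* the largest subunit of RNA polymerase II, and *IPO8* a nuclear import receptor. In leukemia, *GUSB*, *ABL1* and *BCR* are all in use as denominators for fusion transcripts.

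Positions are on GRCh37, the same build as hg19, with the gene bounds of GENCODE. *GUSB* (gene ID 2990) spans chr7:65425671-65447202 on the reverse strand, and *ACTB* (60) chr7:5566040-5603533 and *PPIA* (5478) chr7:44836279-44864163 lie on the same chromosome. *HPRT1* (3251) spans chrX:133594195-133654543, *TBP* (6908) chr6:170863390-170881958, *IPO8* (10526) chr12:30781922-30848803 and *POLR2A* (5430) chr17:7387685-7417933. The promoters of a gene that was low in the early stage lines (*GUSB*), a steady gene (*TBP*) and a gene that was high in all DasR lines (*POLR2A*) are shown as RefSeq gives them on GRCh38.p14, from 250 bases before to 50 bases after the start, with each GC box (GGGCGG on either strand) in capitals. They lie at chr7:65982164-65982463 on the reverse strand, chr6:170554119-170554418 on the forward strand and chr17:7484116-7484415 on the forward strand.
GUSB: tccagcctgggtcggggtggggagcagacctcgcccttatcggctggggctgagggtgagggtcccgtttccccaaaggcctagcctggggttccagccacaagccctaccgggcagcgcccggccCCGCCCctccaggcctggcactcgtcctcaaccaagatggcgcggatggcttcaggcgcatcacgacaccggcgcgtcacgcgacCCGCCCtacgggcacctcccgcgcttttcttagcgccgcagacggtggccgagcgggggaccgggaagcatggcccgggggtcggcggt
TBP: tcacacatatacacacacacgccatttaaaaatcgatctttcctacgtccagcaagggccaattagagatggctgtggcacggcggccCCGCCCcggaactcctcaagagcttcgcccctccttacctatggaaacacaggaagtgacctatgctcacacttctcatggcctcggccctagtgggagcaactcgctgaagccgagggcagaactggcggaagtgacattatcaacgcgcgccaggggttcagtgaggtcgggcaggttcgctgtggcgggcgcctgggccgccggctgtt
POLR2A: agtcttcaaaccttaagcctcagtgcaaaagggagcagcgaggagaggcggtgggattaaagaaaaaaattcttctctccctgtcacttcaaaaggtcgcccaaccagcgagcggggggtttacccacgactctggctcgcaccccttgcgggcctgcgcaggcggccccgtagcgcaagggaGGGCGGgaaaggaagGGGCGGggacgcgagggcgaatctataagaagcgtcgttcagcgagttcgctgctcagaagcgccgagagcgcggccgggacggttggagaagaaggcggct

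These 3 windows have 71.7%, 59.0% and 61.3% G and C, and hold 2, 1 and 2 GC boxes. Of the 6 reference genes with a RefSeq promoter in the table used here, 5 held GGGCGG, against 45.0% of all 35116 promoters of the same length. The E-box CACGTG was in none of the 6 (7.26% of all promoters), TATAAA was in 1, *PPIA* (11.5%), and CCAAT in 2, *TBP* and *PPIA* (34.6%), each searched on both strands. A match is a description of the letters only.

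*GUSB* had 2143 counts (102 CPM) in the drug naive line and 2443 counts (101.6 CPM) in the DMSO line. It had 2058, 1876 and 1503 counts at 10, 15 and 25 nM, which are 74.0, 67.4 and 74.9 CPM, and 1903 and 2052 counts at 50 and 200 nM, which are 91.4 and 95.1 CPM. All 3 early stage lines lay below both late stage lines, and these below both controls, with no overlap between the groups. Mean *GUSB* was 101.8 ± 0.268 CPM for the controls (SD, n = 2) and 72.1 ± 4.12 CPM for the early stage (SD, n = 3), a log2 fold change of -0.51 (standard error 0.08) or 0.700 of the control level. The 15 nM line was the lowest of the 7. In bulk RNA, fewer cells with the transcript and less of it per cell cannot be told apart.

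**Figure D1:**
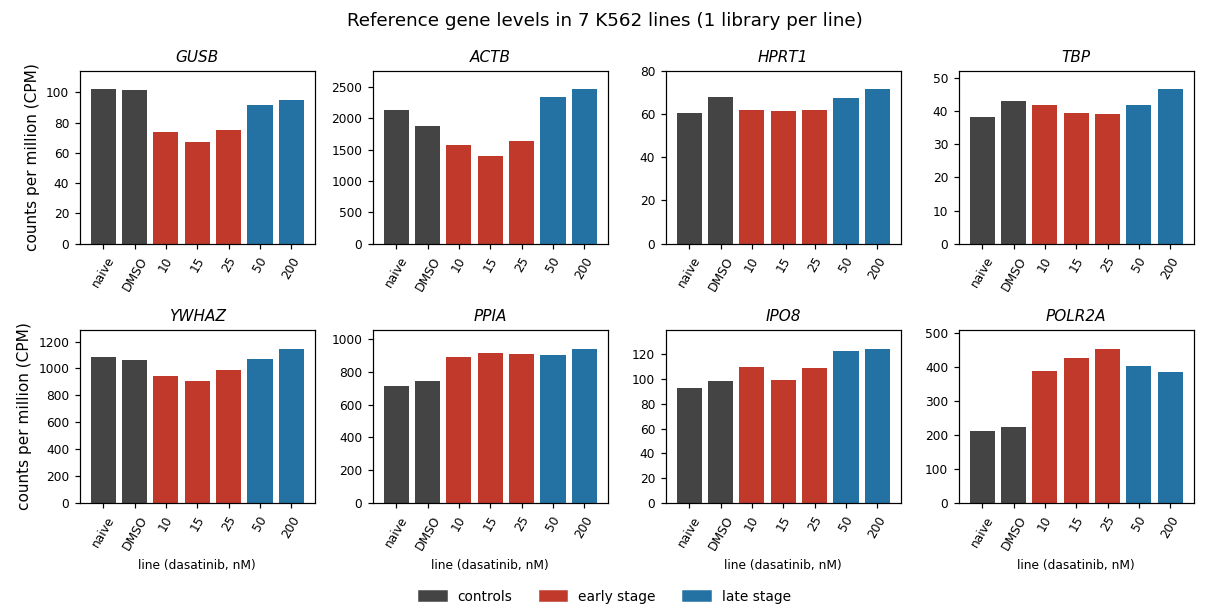
Level of each of the 8 reference genes in the 7 K562 lines, in CPM of the library total, with each panel on its own axis from 0 and 1 bar per library (grey, controls; red, early stage; blue, late stage). *GUSB* stood at 67.4 to 74.9 CPM in the early stage lines and at 91.4 to 102 CPM in the others, *POLR2A* was higher in all 5 DasR lines than in both controls, and *TBP* stayed between 38.3 and 46.6 CPM.

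In the late stage lines *GUSB* was at 93.2 ± 2.60 CPM (SD, n = 2), and its log2 fold change against the controls was -0.15 (95% interval -0.37 to 0.07), which did not pass the FDR of 0.005 used by the study (FDR 0.249 by the quasi-likelihood test of edgeR, adjusted after Benjamini and Hochberg). Late stage lines were higher than early stage lines by 0.36 on the log2 scale (standard error 0.08), a difference given without a test because the early stage values chose the gene.

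The groups were also compared by ratios of counts within 1 library, which do not depend on how libraries are scaled. Each interval below is a 95% range for counting error only. *GUSB* had 2.66 counts per *TBP* count in the drug naive line (2.45 to 2.89) and 2.36 in the DMSO line (2.19 to 2.54). At 10, 15 and 25 nM the ratio was 1.77 (1.64 to 1.90), 1.71 (1.59 to 1.85) and 1.92 (1.76 to 2.09), and at 50 and 200 nM it was 2.19 (2.02 to 2.37) and 2.04 (1.89 to 2.20). The late stage ratios lay between those of the early stage and control lines, but the order was not clear of counting error, as the interval at 200 nM overlapped that at 25 nM and the interval at 50 nM overlapped that of the DMSO line. Against *HPRT1* the ratio was 1.68 and 1.5 in the controls, 1.2, 1.1 and 1.21 in the early stage lines, and 1.36 and 1.33 in the late stage lines.

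*POLR2A* was the least steady of the 8 genes and was on the other side of the controls from *GUSB*. It had 4469 and 5343 counts in the drug naive and DMSO lines (213 and 222 CPM), 10795, 11834 and 9109 counts at 10, 15 and 25 nM (388, 425 and 454 CPM), and 8370 and 8311 counts at 50 and 200 nM (402 and 385 CPM). Every DasR line was above both controls. The early stage log2 fold change was 0.94 (standard error 0.09). In the late stage lines *POLR2A* rose by 0.83 on the log2 scale (standard error 0.10, 95% interval 0.60 to 1.07, FDR 0.00174 by the quasi-likelihood test of edgeR, adjusted after Benjamini and Hochberg), or 1.78-fold. With either control, either late stage line or the 25 nM line left out, the FDR was between 0.00518 and 0.0155, above 0.005, with a log2 fold change between 0.79 and 0.87. The late and early stage lines differed by -0.11 (95% interval -0.32 to 0.10). The ratio of *GUSB* to *POLR2A* counts, 0.480 and 0.457 in the controls, stood at 0.191, 0.159 and 0.165 in the early stage lines and at 0.227 and 0.247 in the late stage lines.

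*ACTB* was lowest in the early stage lines and highest in the late stage lines. It was at 2125 and 1874 CPM in the drug naive and DMSO lines, 1580, 1402 and 1638 CPM at 10, 15 and 25 nM, and 2342 and 2460 CPM at 50 and 200 nM. The drug naive and DMSO lines themselves lay 0.12 on the log2 scale above and below their mean, the widest gap between controls among the 8 genes. Compared with the controls *ACTB* stood at -0.39 on the log2 scale at the early stage (standard error 0.10) and at 0.24 at the late stage (95% interval -0.03 to 0.51, FDR 0.142 by edgeR's quasi-likelihood test). The late stage value was 0.12 without the DMSO line and 0.37 without the drug naive line. Between late and early stage lines the difference was 0.63 (standard error 0.10, 95% interval 0.39 to 0.88), 1.55-fold, with an FDR of 0.0182 by the same test, past 0.05 (as were 6.6% of all genes tested in this direction) but not 0.005. Without the 200 nM line this FDR was 0.09996, above 0.05, and with DESeq2 on all lines it was 1.22e-06. *ACTG1*, the other cytoplasmic actin, had an early stage log2 fold change of -0.68 (FDR 0.0104) and a late stage one of -0.20 (FDR 0.382), and the 4 muscle actin genes were below the CPM limit.

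*YWHAZ* (gene ID 7534, chr8:101928751-101965616 on GRCh37) was lower in the early stage lines by a smaller amount. It was at 1086 and 1062 CPM in the drug naive and DMSO lines, 943, 909 and 988 CPM at 10, 15 and 25 nM, and 1070 and 1148 CPM at 50 and 200 nM. The early stage lines lay below all others, with a log2 fold change of -0.20 (standard error 0.08). Its late stage log2 fold change was 0.02 (95% interval -0.18 to 0.23, FDR 0.853 by edgeR's quasi-likelihood test), a sign that turned when the DMSO or the 200 nM line was left out. The difference between the stages was 0.22 (95% interval 0.03 to 0.41, FDR 0.106).

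*PPIA* and *IPO8* were higher in the DasR lines than in the controls by smaller amounts than *POLR2A*. *PPIA* was at 712 and 743 CPM in the drug naive and DMSO lines, 889, 915 and 909 CPM in the early stage lines, and 902 and 942 CPM in the late stage lines, so that the 5 DasR lines were close to one another and above both controls. Its log2 fold change was 0.30 in the early stage (standard error 0.07) and 0.32 in the late stage (95% interval 0.14 to 0.50, FDR 0.0186 by edgeR's quasi-likelihood test). The stages differed by 0.02 (95% interval -0.14 to 0.19).

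*IPO8* was at 92.6 and 98.5 CPM in the drug naive and DMSO lines, 109.7, 99.6 and 109 CPM at 10, 15 and 25 nM, and 123 and 125 CPM at 50 and 200 nM. The late stage lines were the highest, with a log2 fold change of 0.35 (95% interval 0.14 to 0.56, FDR 0.0226 by the same test), and the 15 nM line was close to the DMSO line. The early stage log2 fold change was 0.14 (standard error 0.08).

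*TBP* and *HPRT1* were the steadiest of the 8. *TBP* was at 38.3 and 43.1 CPM in the drug naive and DMSO lines, 41.9, 39.3 and 39.0 CPM in the early stage lines, and 41.8 and 46.6 CPM in the late stage lines. *HPRT1* was at 60.6 and 67.8 CPM in the controls, 61.9, 61.5 and 61.8 CPM at 10, 15 and 25 nM, and 67.2 and 71.5 CPM in the late stage lines. For both genes the DasR lines overlapped the controls in each stage. The log2 fold changes of *TBP* were -0.04 in the early stage (standard error 0.10) and 0.10 in the late stage (95% interval -0.15 to 0.34, FDR 0.501 by edgeR's quasi-likelihood test). Those of *HPRT1* were -0.07 (standard error 0.08) and 0.09 (95% interval -0.11 to 0.30, FDR 0.453). Over 14 alternatives the late stage value ran from 0.03 to 0.16 for *TBP* and from 0.04 to 0.14 for *HPRT1*. The early stage value of *HPRT1* ran from -0.12 to -0.02. The ratio of *HPRT1* to *TBP* counts was 1.58 and 1.57 in the controls, 1.48, 1.56 and 1.58 in the early stage lines, and 1.61 and 1.54 in the late stage lines, and its counting intervals overlapped in all 7 libraries.

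**Figure D2:**
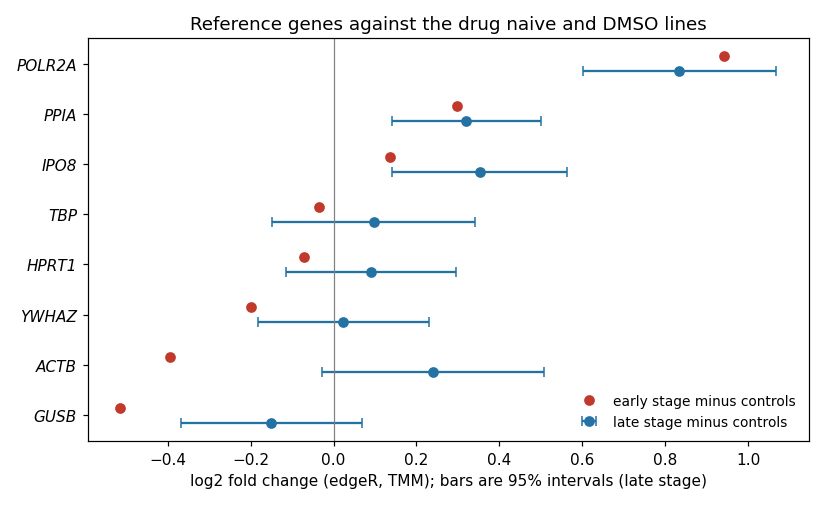
Log2 fold change of each reference gene in the early stage (red) and late stage (blue) lines against the 2 controls, as fitted by edgeR, with 95% intervals for the late stage (the early stage values are a description and have none). *GUSB* and *ACTB* were lowest in the early stage, at -0.51 and -0.39, while *POLR2A* was at 0.94 and 0.83. The late stage intervals of *GUSB*, *ACTB*, *YWHAZ*, *TBP* and *HPRT1* included 0, and those of *PPIA*, *IPO8* and *POLR2A* lay above 0.

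As counts of calls, 1 of the 8 genes (*POLR2A*) passed the FDR of 0.005 as higher and none as lower at the late stage (edgeR's quasi-likelihood test), against 3.42% and 4.56% of all genes tested, and at an FDR of 0.05 *POLR2A*, *PPIA* and *IPO8* passed as higher (16.2% of all genes). With DESeq2 on all lines *PPIA* passed 0.005 as well (FDR 0.000183). The calls of *PPIA* and *IPO8* at 0.05 were lost with either control or the 200 nM line left out, that of *IPO8* also without the 50 nM line, and both with only the 2 groups in the fit, with FDRs by edgeR of at most 0.0733 for *PPIA* and 0.0988 for *IPO8*. Calls of the 8 genes in the early stage are not given, since this contrast chose the list. Between the stages none of the 10452 genes tested passed 0.005 (0.0%), with 3450 at an unadjusted p under 0.05 by edgeR's quasi-likelihood test. DESeq2 called 1135 of them, and edgeR without a filter on low counts called 295 genes of a larger set. The late stage lines did not overlap the controls for 5 of the 8 genes, close to the 67.7% of all genes tested for which this held, and the early stage lines did not overlap them for 6 (69.8% of all genes), from which nothing is read. The median log2 fold change of the 8 genes was -0.05 in the early and 0.17 in the late stage, beside 0.003 and -0.004 for all genes. Both stages were compared with the same 2 controls.

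Levels of different genes were compared per kilobase of gene length, as given in the deposited annotation. The median over the 7 lines was 1034 CPM per kilobase for *ACTB*, 396 for *PPIA* and 291 for *YWHAZ*, a group well above the others. *POLR2A* followed with 59.0, *HPRT1* with 43.8 and *GUSB* with 39.7, then *TBP* with 21.9 and *IPO8* with 19.2. The ranges over the lines of *POLR2A* (32.3 to 69.0), *HPRT1* (42.9 to 50.5) and *GUSB* (29.3 to 44.4) overlapped, and their order was not the same in every line, *POLR2A* being below *HPRT1* and *GUSB* in the drug naive line and above them in the DasR lines. The ranges of *TBP* (20.1 to 24.5) and *IPO8* (16.3 to 21.9) overlapped as well.

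Steadiness over all 7 lines was measured as the SD of log2 CPM. It was 0.0803 for *HPRT1*, 0.0862 for *TBP*, 0.124 for *YWHAZ*, 0.151 for *PPIA*, 0.154 for *IPO8*, 0.249 for *GUSB*, 0.309 for *ACTB* and 0.445 for *POLR2A*. The median of all genes tested was 0.254, and *GUSB* stood at percentile 48.8 of their SDs, in the middle of the transcriptome. *HPRT1* and *TBP* stood at percentiles 2.87 and 3.77, *ACTB* at 61.6 and *POLR2A* at 79.1. From its highest to its lowest line, *GUSB* covered 1.57-fold, *ACTB* 1.74-fold and *POLR2A* 2.07-fold, compared with 1.15-fold for *HPRT1* and 1.18-fold for *TBP*.

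The mean pairwise variation M, the mean SD of the log2 ratio of a gene to each of the others, gives a ranking free of library scaling. M was lowest for *HPRT1* (0.192) and *TBP* (0.198), followed by *YWHAZ* (0.207), *IPO8* (0.210) and *PPIA* (0.243). It was 0.297 for *GUSB*, 0.306 for *ACTB* and 0.484 for *POLR2A*, the same 3 genes that had the largest SDs. The steadiest pair was *HPRT1* with *TBP*, whose log2 ratio had an SD of 0.0404, and the least steady was *GUSB* with *POLR2A*, at 0.659. When the gene of highest M was dropped step by step, *POLR2A* left first, then *ACTB* (0.254) and *GUSB* (0.250), and *HPRT1* and *TBP* remained.

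A wider list of 47 further genes in use as references was read in the same way, and all 47 were tested. In the early stage lines 6 were higher and 2 lower at the FDR of 0.005 by edgeR's quasi-likelihood test, and in the late stage lines 6 higher and 1 lower. For all genes tested the early stage shares were 7.92% (higher) and 10.1% (lower) and the late stage shares 3.42% and 4.56%, which serve for the lists below as well. The 47 genes had median log2 fold changes of 0.014 and 0.005 (0.003 and -0.004 for all genes). *CASC3*, a part of the exon junction complex, fell by 0.74 in the early (FDR 0.000589) and fell by 0.61 in the late stage lines (FDR 0.00279). *TFRC*, the transferrin receptor that brings iron into erythroid cells, rose by 1.13 (FDR 0.000677) and 0.85 (FDR 0.00373), and *PSMB2*, a proteasome subunit, rose by 0.71 (FDR 0.00202) and 0.76 (FDR 0.00344). *B2M*, the light chain of HLA class I, fell by 0.58 in the early stage lines (FDR 0.00411). *ABL1* and *BCR*, whose counts include reads of the fusion, rose by 2.63 and 2.58 in the early stage lines (FDR 0.000479 and 0.000597) and by 1.77 and 1.68 in the late stage lines (FDR 0.00320 and 0.00455).

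Among the 55 genes of both lists, low SDs were those of *C1orf43* (0.0617), the ribosomal protein gene *RPL37A* (0.0704) and the ubiquitin-conjugating enzyme gene *UBE2D2* (0.0716). *HPRT1* and *TBP* came at ranks 5 and 6, *GUSB* at 36, *ACTB* at 40 and *POLR2A* at 51, while *BCR* and *ABL1* were last, at 1.18 and 1.2. *GAPDH*, the glycolytic enzyme gene, had an SD of 0.156 and rank 26. Ribosomal protein genes have many processed copies in the genome, and reads shared with those could be counted elsewhere.

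**Figure D3:**
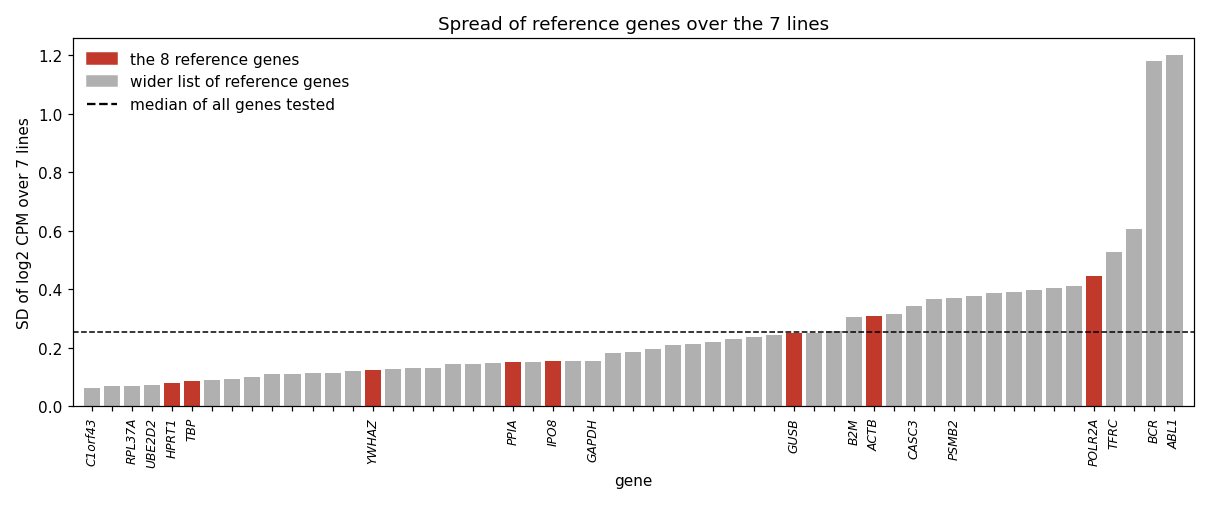
SD of log2 CPM over the 7 lines for 55 reference genes, in rising order (red, the 8 reference genes followed here; grey, the wider list, with the genes named in the text labelled), with the median of all 10452 genes tested as a dashed line at 0.254. *HPRT1* and *TBP* are near the low end, *GUSB* lies next to the median and *POLR2A* near the high end.

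Over all genes with a mean of at least 50 CPM, the 10 of lowest SD were *OLA1*, *SEPT2*, *MAST2*, *MTFR1L*, *DNAJC13*, *ENSA*, *DAP3*, *BAG6*, *RERE* and *SEP15*. *OLA1*, an ATPase of the Obg family, ranked 1 of 4885 with an SD of 0.0279 and between 261 and 279 CPM in the 7 lines. *SEPT2*, a septin of the cytoskeleton, had an SD of 0.0301 (279 to 302 CPM), and *BAG6*, a chaperone for tail-anchored proteins, one of 0.0373 (480 to 513 CPM). These 10 were picked for their low SD, with no other libraries of these lines analysed here, and *TBP* and the other genes under 50 CPM could not be among them.

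The choice of reference enters a PCR ratio directly. Relative to the library total with TMM scaling, *ABL1* counts were 6.09-fold above the controls in the early stage lines and 3.33-fold in the late stage lines (means of log2 values over 3 and 2 lines). Divided by *GUSB* the same counts gave 8.70-fold and 3.69-fold, the highest among the 8 references. Divided by *POLR2A* they gave 3.18-fold and 1.87-fold, the lowest, so that the same *ABL1* counts differed 2.74-fold in the early and 1.97-fold in the late stage lines with the reference used. *TBP* and *HPRT1* gave 6.24-fold and 6.39-fold in the early stage, close to the value without any reference gene.

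Relative to *GUSB*, *ABL1* lay above the controls by log2 values of 3.40, 3.19 and 2.78 at 10, 15 and 25 nM and 2.21 and 1.56 at 50 and 200 nM, and relative to *TBP* by 2.89, 2.64, 2.39, 2.02 and 1.26. The same order held with each of the 8 genes. *ABCG2*, with 75 and 14 counts in the controls and 14240, 86928, 61974, 4149 and 52 counts in the DasR lines, had an early stage mean of 10.59 on the log2 scale above the controls relative to *GUSB* and 9.13 relative to *POLR2A*. In the 200 nM line its level relative to *GUSB* was 0.77 above the mean of the controls in log2 units and relative to *POLR2A* -0.15, both inside the range of the controls, which lay 1.22 and 1.26 on either side of their mean. These are ratios of sequencing counts, not of PCR products, and the e14a2 fusion junction was not counted separately.

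**Figure D4:**
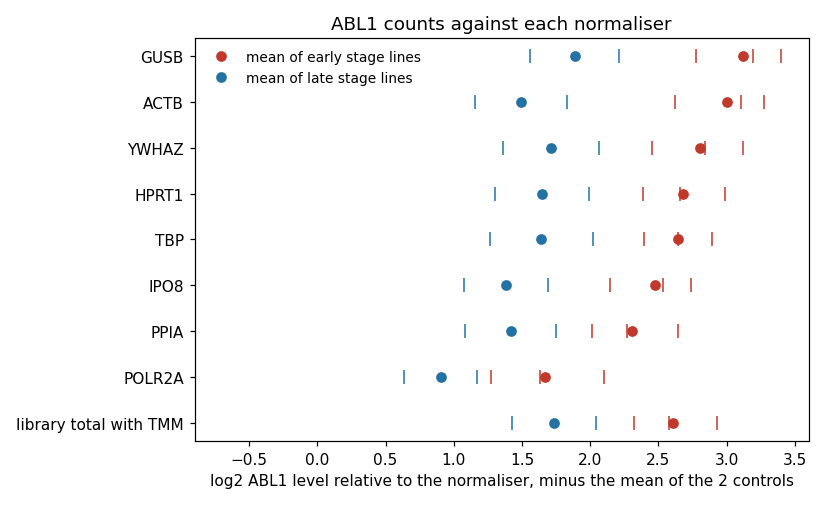
*ABL1* counts relative to the library total or to each of the 8 reference genes, as log2 values minus the mean of the 2 controls. Dots are means of the 3 early stage (red) or 2 late stage (blue) lines and ticks are single lines; the early stage mean ran from 1.67 with *POLR2A* to 3.12 with *GUSB*.

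Because *GUSB* encodes a lysosomal enzyme, a list of 44 lysosomal genes, mostly hydrolases, was read beside it, of which 38 were tested. In the early stage lines none was higher and 4 were lower at the FDR of 0.005 by edgeR's quasi-likelihood test (7.92% and 10.1% of all genes), so that the number lower was about that of any 38 genes. The list had a median log2 fold change of -0.22 (0.003 for all genes), and 13 of the 38 had a positive sign. *DNASE2*, the acid DNase that digests engulfed nuclei, fell by 2.29 (FDR 0.000173). *CTSH*, a cysteine protease, fell by 1.05 (FDR 0.000833). *AGA*, which cleaves sugars from asparagine, fell by 2.03 (FDR 0.00104). In the late stage lines *DNASE2* fell by 1.15 (FDR 0.00410) and *HEXA* fell by 0.78 (FDR 0.00468), and the median was -0.17 (-0.004 for all genes). Other members had positive values that did not pass 0.005, such as *HYAL2* at 0.78 and *LAMP1* at 0.33 in the early stage.

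**Figure D5:**
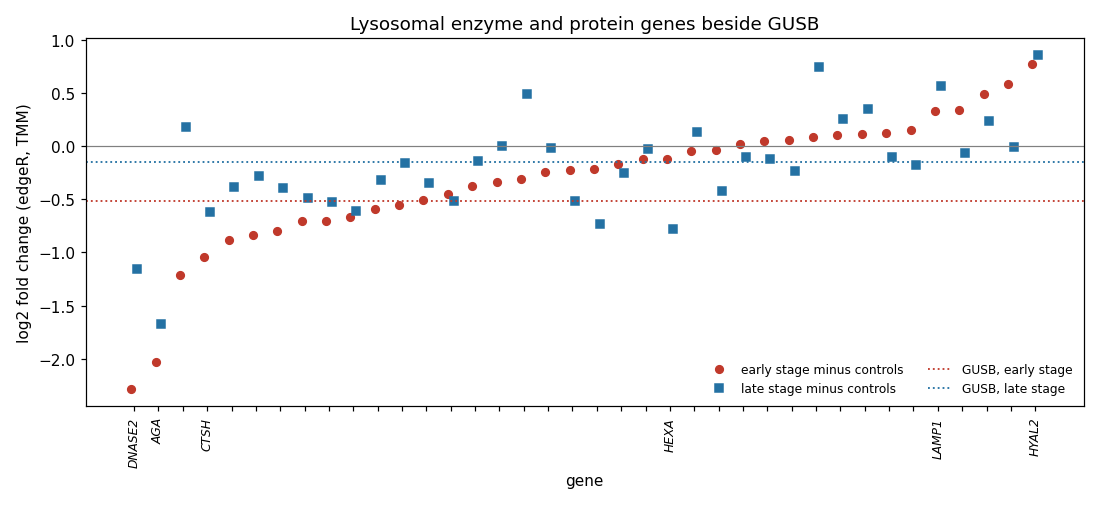
Log2 fold change of 38 lysosomal genes in the early (red circles) and late stage lines (blue squares) against the controls, sorted by the early stage value, with genes named in the text labelled and dotted lines at the values of *GUSB* (-0.51 and -0.15). *DNASE2* and *AGA* were lowest in the early stage lines, at -2.29 and -2.03, and genes to the right, such as *HYAL2*, lay above 0.

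The genes whose log2 CPM followed *GUSB* most closely over the 7 lines were *CD68*, *MFGE8*, *ACAP1*, *SMAGP* and *RAB3GAP1*, with Pearson correlations of 0.997, 0.997, 0.995, 0.994 and 0.994 (n = 7 lines, which share the grouping into stages). They are the 5 highest of all genes tested, 6.92% of which had a correlation over 0.9 with *GUSB*. *CD68*, a glycoprotein of lysosomes and late endosomes, was at 66.6 and 63.2 CPM in the controls, 23.8, 15.3 and 23.5 CPM at 10, 15 and 25 nM, and 43.9 and 46.4 CPM at 50 and 200 nM. It had the same order of groups as *GUSB* with a wider range, 2.17 against 0.65 on the log2 scale. *RAB3GAP1*, a subunit of the Rab3 GTPase-activating complex, ran from 156 CPM in the DMSO line to 73.0 CPM at 15 nM.

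Genes beside *GUSB* on chromosome 7 were read because *GUSB* DNA also served the study as the reference for copy number. The 5 nearest tested genes on each side spanned 64498732 to 66276451 (GRCh37), and none passed the FDR of 0.005 in the early stage lines, where 7.92% of all genes were higher and 10.1% lower. Their median log2 fold change was 0.11 in the early and -0.32 in the late stage, and 4 of the 10 had a negative early stage value. The direct neighbors differed, with *VKORC1L1*, of the vitamin K epoxide reductase family, at 0.38 (standard error 0.15, FDR 0.0703) and *ASL*, the argininosuccinate lyase gene, at -1.03 (standard error 0.21, FDR 0.00735). *LINC00174* was in the late stage the only one of the 10 past 0.005, at -1.21 (FDR 0.00175). These are RNA levels, and DNA was not analysed here.

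*GUSB* has many partial copies in the genome, and their rows held more counts than the gene itself. The 9 rows named as *GUSB* pseudogenes summed to 201 and 224 CPM in the drug naive and DMSO lines, 181, 205 and 193 CPM at 10, 15 and 25 nM, and 162 and 148 CPM at 50 and 200 nM, which is between 156% and 304% of the *GUSB* count. The late stage lines were thus the lowest for the copies, where the early stage lines were the lowest for *GUSB*. Of these rows 6 were tested, and none passed 0.005 in either stage, with early stage log2 fold changes of 0.08 for *GUSBP1*, -0.08 for *GUSBP2*, -0.17 for *GUSBP11*, -0.28 for *GUSBP3*, -0.29 for *GUSBP4* and -0.41 for *GUSBP9* (FDR 0.0307 by edgeR). In the late stage all 6 had negative values, from -0.34 for *GUSBP3* to -0.66 for *GUSBP11*. Summed with *GUSB*, the level was 303 and 325 CPM in the controls, 255, 272 and 268 CPM at 10, 15 and 25 nM and 254 and 243 CPM in the late stage lines, below both controls in all 5 DasR lines. Reads that fit both the gene and a copy could be counted in either row or left out, so that the level of *GUSB* is uncertain by an amount the counts do not give. *PPIA*, the only other of the 8 with such rows, had 6, which summed to at most 0.625% of its count.

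Partners of the other reference genes were taken as families. Of the 11 other RNA polymerase II subunits all were tested, and 10 had positive log2 fold changes in each stage, with medians of 0.34 in the early and 0.31 in the late stage. *POLR2L* and *POLR2K*, small subunits shared with RNA polymerases I and III, rose by 1.36 (FDR 0.00268) and 0.81 (FDR 0.00273) in the early stage, and *POLR2K* by 0.89 in the late stage (FDR 0.00414 by edgeR's quasi-likelihood test). *POLR2A* at 0.94 and 0.83 was thus above the median of its partners.

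A list of 14 genes, *TBPL1* and 13 TAF subunits of the TFIID complex that *TBP* belongs to, had medians of 0.08 and -0.12. *TAF11* rose in both stages, by 0.65 (FDR 0.00145) and 0.61 (FDR 0.00409), and *TBPL1*, a relative of *TBP* outside TFIID, fell by 0.82 in the early stage (FDR 0.00301). Among the 14 cyclophilins, *PPIF* of mitochondria rose by 0.99 (FDR 0.00032) and 1.195 (FDR 0.000551), while *PPIB* of the endoplasmic reticulum fell by 0.81 (FDR 0.00376) and fell by 0.97 (FDR 0.00475), and the medians were 0.26 and 0.38, close to *PPIA* itself.

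Of 5 other 14-3-3 genes tested, *YWHAH* and *YWHAQ* rose in the early stage, by 0.81 (FDR 0.000644) and 0.55 (FDR 0.00309), where *YWHAZ* was at -0.20. Among 10 other import receptors, *IPO4* and *TNPO2* rose in the early stage, by 0.95 (FDR 0.00223) and 0.62 (FDR 0.00238), and *TNPO3* fell by 0.82 in the late stage (FDR 0.00219). Among 13 purine genes beside *HPRT1*, *ADA*, adenosine deaminase, rose by 1.98 in the early stage (FDR 0.00223), and none passed 0.005 in the late stage. Genes of the same complex or family as a reference gene thus included some that changed where the reference gene stayed within narrow bounds.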

How the data were processed

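RNA of 7 K562 lines was sequenced as paired 75 base reads, with 1 library per line. STAR, with hg19 as the genome, and featureCounts gave the raw counts per gene that the authors deposited, without normalization. Whether strand was used in the counting is not given in the sources used here. The authors' comparison tables hold fold changes and p-values, which were not used, and only gene symbols and gene length (in bases, deposited as a column of no sample) were read from one of them. The number of unused columns of per-sample values was 0.

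Lines were assigned by their labelled dose to the groups of the study, which had been formed after clustering the expression data of these libraries, so the tested groups are not independent of the counts. The 10452 genes that reached 10 CPM in 2 or more libraries were tested after TMM scaling, in edgeR 4.0.16 under R 4.3.3 (glmQLFit and glmQLFTest, 1 coefficient per group, all 7 libraries), with Benjamini-Hochberg adjustment over all 10452 genes. Intervals came from the quasi-likelihood F statistic, and the biological coefficient of variation was 0.161. Levels are CPM of the library total, and SDs and ratios used log2 CPM with TMM and a prior count of 2. No 2 libraries of a group agreed within sampling noise (chi-square over degrees of freedom 21.1 to 70.1). A count of 3 in a library is between 0.108 and 0.150 CPM. The functions were tested on simulated counts. The members and lists were chosen with earlier results of these data known. Beyond the 8 genes, genes were named by fixed rules: up to 3 per direction, list and comparison with the smallest p past 0.005, the 5 most like GUSB, the 10 steadiest, the nearest neighbors and pseudogenes. HYAL2, LAMP1, ACTG1, GAPDH, C1orf43, RPL37A and UBE2D2 were named after their values were seen. Some results are not reported here. Alternatives (DESeq2 1.42.0, limma 3.58.1, scaling, filters, libraries) are given at the end.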

Additional observations from a re-analysis of the deposited data

Results flagged for a closer look

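*ACTB* differed between the 2 stages by 0.634 on the log2 scale (late minus early stage lines, FDR 0.0182 by the quasi-likelihood test of edgeR, adjusted after Benjamini and Hochberg), with both late stage lines above all 3 early stage lines. It was picked out because its effects against the shared controls differed in sign between the stages and the test of their difference passed 0.05. Against the controls it was at -0.39 in the early and 0.24 in the late stage. The FDR of the difference between the stages ran from 1.22e-06 (DESeq2) to 0.09996 (without the 200 nM line) over 14 alternatives.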

How the results depend on the processing

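The number of genes past the FDR of 0.005 was 1881 in the early stage, 834 in the late stage and 0 between the stages. It was 3548, 2503 and 1135 with DESeq2, and 4865, 3542 and 1328 at an FDR of 0.05. Without a filter on low counts it was 1287 in the late stage and 295 between the stages, and with only the 2 groups compared in the fit 257 in the late stage. Leaving out 1 library gave 208 to 2066 genes in the early stage, 33 to 596 in the late stage (33 without the drug naive line) and 0 to 198 between the stages (198 without the 50 nM line); the cause was not tested.

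Of the late stage values of the 8 genes over the alternatives, 103 kept their direction and side of the threshold, 6 were weaker, 1 was stronger and 2 were reversed. Between the stages 111 values did so and 1 was stronger, with *GUSB* counted as a description. The lowest FDR of any gene between the stages was 0.0167 by edgeR's quasi-likelihood test. An unchanged side of 0.005 there thus says little about the 8 genes. The sign turned for *TBP* in the early stage without the DMSO line (0.0212, with a range of -0.08858 to 0.0212 over libraries left out), and for *YWHAZ* in the late stage without the DMSO line (-0.02074) or the 200 nM line (-0.01797), with a range of -0.02074 to 0.06976. *POLR2A* in the late stage also lost its call with only the 2 groups in the fit (FDR 0.00727 by edgeR). *GUSB* stayed between -0.55 and -0.46 in the early stage over 14 alternatives. Its SD ran from 0.212 to 0.269, and those of *TBP* and *HPRT1* from 0.0595 to 0.0978 and from 0.0621 to 0.0915.

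No paired analysis was possible because each line was sequenced once and the lines of different groups form no pairs. Reads shared with copies of *GUSB* limit its level at any depth.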

Other observations

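Markers of other cell types were read as CPM, most as sums over a list. T cell genes (*CD3D*, *CD3E*, *CD3G*) summed to between 4.78 and 33.0 CPM, most of it *CD3D*, and the B cell gene *CD79A* was at most at 0.291 CPM. Monocyte genes summed to between 26.0 and 102.7 CPM, nearly all *LYZ*, with *CD14* at most at 1.11 CPM. Fibroblast genes summed to between 4.86 and 19.6 CPM and endothelial genes to between 3.99 and 38.6 CPM, the highest value being that of *VWF* at 10 nM (36.97 CPM). Epithelial genes summed to between 104.8 and 187.3 CPM from *EPCAM* and *KRT19*, with *CDH1* at 0 or 1 count in every line.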
